A study of Mus musculus with 6 samples.

Results

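Transcripts of the oocyte and the first cleavages, Tcstv1, Omt2a, Tcl1, Btg4 and Dppa3, were followed across pools of mouse blastocysts. They were taken by gene symbol, and the 5 genes are carried by 7 probes of the 45281 on the array, which names 19057 genes. Omt2a and Tcl1 have 2 probes each. The set was chosen by measured values, because the signals of Tcstv1 and Omt2a stood out on 1 array of embryos from the oviduct, so the oviduct values of those 2 genes are given as a description, with no test.

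Each of 6 Illumina bead arrays held labelled RNA of a pool of 100 to 120 blastocysts. The mothers were superovulated females of the outbred CD-1 stock. The first group came from ligated oviducts, the second from the uterus of mice that had received 0.5 µg of a compound the labels call ICI, and the third from the uterus of normal pregnant mice, with 2 arrays each. All females had received 5 IU of pregnant mare gonadotropin and, 44 h later, 5 IU of human chorionic gonadotropin before mating, and collection is given as day 3.5 and as day 4 post coitum. The labels also give a time of 70 h after human chorionic gonadotropin for the uterus and ICI groups, and no such time for the oviduct group. Separate animals for the pools within a group are not stated in the labels, so the p-values measure the spread between these arrays, which may be technical, and a pool can hold embryos of more than 1 stage.

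The oocyte stores transcripts for the first divisions, and most of them are degraded around the 2-cell stage, when the mouse embryo starts to transcribe its own genome. Tcstv1 belongs to the genes that are switched on in a burst at that stage and then silenced. Omt2a is transcribed in the growing oocyte. Tcl1 is an oocyte-abundant coactivator of the Akt kinases, and Btg4 is an adaptor that brings the CCR4-NOT deadenylase to maternal mRNAs so that they are cleared. Dppa3, also called Stella, is a maternal protein that shields the maternal genome from demethylation, and it stays active in the inner cell mass of the blastocyst and in germ cells.

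The pools expressed markers of blastocysts. Of 16 blastocyst markers, among them the trophectoderm keratin genes Krt8 and Krt18, 15 were above background on every array except uterus replicate 1, where 14 were, counting a gene if any of its probes passed. Several were low on oviduct replicate 2. There the trophectoderm genes Gata2 and Eomes and the primitive endoderm gene Pdgfra stood at 8.28, 7.37 and 7.02 on the log2 scale, the lowest of the 6 arrays for each. Elf5 of the trophectoderm and Sox17 of the endoderm stood at 4.71 and 4.93, with the listed probe not above background, against 6.51 for both on oviduct replicate 1 and at least 7.68 and 7.71 on the ICI and uterus arrays. These 5 were named after their values were seen, and their part in the results was not tested. Not all markers were low there. Pou5f1, also named after its values were seen, was highest on that array, at 12.20. The median over the 15 markers was 11.49 there, against 10.28 to 10.96 on the other arrays. Of the 15, 4 were higher on oviduct replicate 2 than on replicate 1. "Above background" means a detection p-value under 0.05, and 16525 to 18182 probes met this on an array. Some arrays stood apart from their replicate. A height was taken as the log2 signal on an array minus the highest of the other 5, over 21817 probes above background on at least 1 array. On oviduct replicate 2, 1.48% of probes had a height of at least 1, against 0.284% on oviduct replicate 1, 0.00917% and 0.0413% on the ICI arrays, and 0.0367% and 0.206% on uterus replicates 1 and 2. Heights of at least 2 were reached by 0.348% of probes on oviduct replicate 2 and 0.0688% on uterus replicate 2. The highest of the 6 values fell on oviduct replicates 1 and 2 for 26.2% and 18.7% of probes, on the ICI arrays for 11.3% and 15.6%, and on the uterus arrays for 19.5% and 8.6%.

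**Figure D1:**
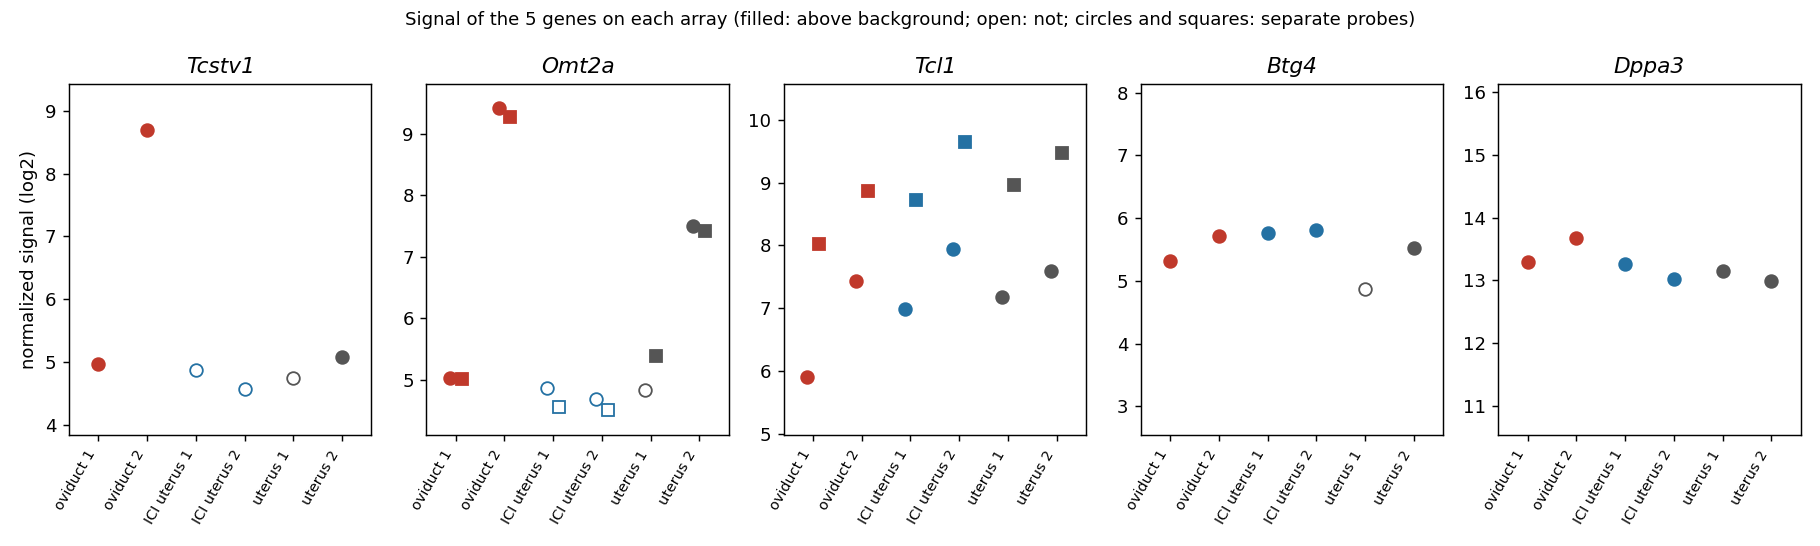
Normalized log2 signal (vertical axis) of the 5 genes on each of the 6 arrays (horizontal axis), 1 panel per gene, each with its own scale. Filled points are above background, open points are not, and circles and squares are different probes of the same gene. Tcstv1 reached 8.70 on oviduct replicate 2 against at most 5.07 elsewhere, and Omt2a was high on oviduct replicate 2 and, lower, on uterus replicate 2.

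Tcstv1 was strong on a single array. Its signal, with the standard error over beads, was 96.4 ± 5.84 and 473 ± 19.7 on oviduct replicates 1 and 2, 85.9 ± 5.19 and 74.96 ± 4.03 on the ICI arrays, and 82.4 ± 3.75 and 88.6 ± 4.29 on the uterus arrays. Only oviduct replicate 2 lay clear of the rest. The detection p-value was 0.0449 on oviduct replicate 1 and on uterus replicate 2, just inside the limit, and from 0.0823 to 0.389 on uterus replicate 1 and both ICI arrays, where the probe was not above background. On the normalized log2 scale (background-corrected and quantile normalized) oviduct replicate 2 stood at 8.70, which is 3.63 above the highest other array, or 12.4-fold. The ratio of uncorrected signals between oviduct replicates 2 and 1 was 4.91. Among the 21817 probes, Tcstv1 ranked 8th by this height.

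The group means of Tcstv1 were 6.83 ± 2.64 in the oviduct group, 4.73 ± 0.22 in the ICI group and 4.91 ± 0.23 in the uterus group (log2, SD, n = 2 each). Without oviduct replicate 2 the difference of the oviduct from the uterus group was 0.050, against 1.92 with it. Against the ICI group, where neither array was above background, the oviduct mean was at least 3.495-fold higher, a bound set against the lowest signal above background on each ICI array or the probe's own, whichever was higher. Without oviduct replicate 2 the log2 difference of oviduct minus ICI was 0.24, against 2.10 with it. ICI and uterus embryos were not tested against each other for this gene, because only the oviduct group took its probe past the filter and just 1 of those 4 arrays was above background.

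The gene lies on chromosome 13, at 119893387 to 119894785 of assembly GRCm38.p6. Its relative Tcstv3, at 120316862 to 120318261, has a very similar sequence, so their probes may read each other's transcripts. Tcstv3 had signals of 78.0 and 772 on oviduct replicates 1 and 2, 104 and 73.8 on the ICI arrays, and 84.1 and 77.1 on the uterus arrays. Oviduct replicate 2 was again by far the highest, 3.97 log2 units above the next array, while the first ICI array was also above background.

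Omt2a was high on 2 arrays, which belong to different groups. The signals of probe ILMN_2517795 were 98.3 ± 3.11 and 728 ± 25.2 (standard error over beads) on oviduct arrays, 85.4 ± 3.44 and 78.5 ± 4.42 on the ICI arrays, and 84.5 ± 2.72 and 222 ± 8.37 on the uterus arrays. Those of probe ILMN_2634032 were 98.2 ± 4.21 and 670 ± 15.6, 75.2 ± 3.21 and 71.9 ± 2.84, and 96.8 ± 5.00 and 214 ± 6.71 for the oviduct, ICI and uterus arrays in the same order. Both probes were highest on oviduct replicate 2, next on uterus replicate 2, and not above background on either ICI array. The height of oviduct replicate 2 over uterus replicate 2 was 1.92 and 1.86 log2 units for the 2 probes. Within the uterus group, replicate 2 exceeded replicate 1 by 2.68 and 2.04 log2 units.

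The group means of Omt2a carried a wide spread. For probe ILMN_2517795 they were 7.22 ± 3.11 in the oviduct group, 4.77 ± 0.13 in the ICI group and 6.16 ± 1.89 in the uterus group (log2, SD, n = 2 each). For probe ILMN_2634032 they were 7.15 ± 3.02, 4.52 ± 0.04 and 6.40 ± 1.44 for the same groups. The oviduct mean was at least 4.58-fold and at least 4.36-fold above the ICI group by the 2 probes. Without oviduct replicate 2 the log2 differences of oviduct minus ICI were 0.25 and 0.49, against 2.45 and 2.63 with it. For ICI against uterus, the ICI mean of the second probe lay below the uterus mean by at least 2.60-fold (limma adjusted p = 0.664). The spread in that test also draws on the oviduct values that chose the gene. With only the 2 groups compared, the limma adjusted p was 0.192. For the first probe no bound is given, since uterus replicate 1 and both ICI arrays were not above background. That probe was not tested because only the oviduct group took it past the filter. By the second probe both ICI arrays lay below both uterus arrays, as did 28.7% of all tested probes. Without uterus replicate 2 the log2 differences of ICI minus uterus were -0.056 and -0.86, against -1.39 and -1.88 with it. Oviduct minus uterus, 1.05 and 0.75 with all arrays, changed with every array of the 2 groups that was left out. It was 3.26 and 2.88 without oviduct replicate 1, -1.15 and -1.39 without oviduct replicate 2, -0.28 and -0.27 without uterus replicate 1, and 2.39 and 1.77 without uterus replicate 2.

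Omt2a lies on chromosome 9 (78311972 to 78314797, GRCm38.p6), 13232 bases from its relative Omt2b (78328030 to 78329620), with no annotated gene between them. Omt2b followed the same pattern, with signals of 102 and 455 on oviduct arrays, 85.6 and 87.1 on the ICI arrays, and 93.8 and 173 on the uterus arrays. It too was highest on oviduct replicate 2 and next on uterus replicate 2. The 2 genes are similar in sequence, and whether each probe reads only its own gene was not tested, since probe sequences were not used here. Stretches of 300 bases that the RefSeq table for GRCm38.p6 gives as their promoters are shown because both genes were high on the same arrays. The Omt2b stretch runs across the start of the gene, while that of Omt2a lies wholly inside the gene's annotated span. Capitals mark CANNTG, the E-box bound by basic helix-loop-helix factors such as the oocyte factor Figla, which reads the same on both strands.
Omt2a, chr9:78313999-78314298, minus strand: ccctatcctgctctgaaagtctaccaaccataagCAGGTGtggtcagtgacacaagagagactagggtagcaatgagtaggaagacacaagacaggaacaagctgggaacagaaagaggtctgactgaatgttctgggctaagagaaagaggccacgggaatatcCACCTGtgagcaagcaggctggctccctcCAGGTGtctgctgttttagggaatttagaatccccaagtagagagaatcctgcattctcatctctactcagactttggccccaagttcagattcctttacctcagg
Omt2b, chr9:78327780-78328079, plus strand: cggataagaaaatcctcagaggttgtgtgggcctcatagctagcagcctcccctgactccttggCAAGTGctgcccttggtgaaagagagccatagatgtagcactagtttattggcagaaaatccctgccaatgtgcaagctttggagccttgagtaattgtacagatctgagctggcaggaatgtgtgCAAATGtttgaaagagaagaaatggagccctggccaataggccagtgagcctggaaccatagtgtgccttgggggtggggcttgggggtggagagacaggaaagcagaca
The first holds 3 and the second 2 matches, none of them overlapping. Of 32851 promoters of this length, 72.3% hold at least 1, 39.6% at least 2 and 17.6% at least 3, so such counts are common. TAATTG, searched on both strands as the motif of the oocyte homeobox factor Nobox, occurs 1 time in the Omt2b stretch and not in that of Omt2a, and in 8% of all promoters. TATAAA, the TATA box, occurs in neither and in 13.6% of all. Sequences were matched for 3 of the 5 genes (Omt2a, Tcl1 and Btg4).

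Tcl1 was above background on all 6 arrays by both probes. The signals of probe ILMN_2985612 were 415 ± 12.6 and 519 ± 14.3 (standard error over beads) on oviduct arrays, 459 ± 13.9 and 727 ± 16.8 on the ICI arrays, and 528 ± 17.2 and 704 ± 17.8 on the uterus arrays. Those of probe ILMN_2638171 were 136 ± 5.02 and 241 ± 9.19, 181 ± 7.87 and 265 ± 11.9, and 187 ± 6.88 and 233 ± 6.54 in the same order. By both probes oviduct replicate 1 was lowest and ICI replicate 2 highest. Replicate 2 exceeded replicate 1 in each group by both probes.

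The Tcl1 group means were 8.45 ± 0.59 in the oviduct group, 9.19 ± 0.66 in the ICI group and 9.22 ± 0.37 in the uterus group by probe ILMN_2985612 (log2, SD, n = 2 each). The log2 difference of oviduct minus uterus was -0.77 (SE 0.41, 95% confidence interval -1.74 to 0.19, limma adjusted p = 0.360), and that of oviduct minus ICI was -0.74 (SE 0.41, limma adjusted p = 0.338). ICI minus uterus gave a log2 difference of -0.03 (95% confidence interval -0.996 to 0.934, limma adjusted p = 0.987). The other probe gave -0.72, -0.79 and 0.07 for the 3 comparisons, with adjusted p from 0.424 to 0.979. The oviduct arrays lay below both uterus arrays by the first probe and overlapped with them by the other. Of all tested probes, 23.8% lay lower in the oviduct than in the uterus group without overlap.

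The Tcl1 relatives were near background on most arrays. Of these, Tcl1b3 had signals of 88.3 and 195 on oviduct arrays, 83.9 and 77.9 on the ICI arrays, and 79.7 and 88.2 on the uterus arrays. It was therefore highest on oviduct replicate 2, by 1.91 log2 units, and Tcl1 was not. Tcl1b2 and Tcl1b4 were above background on oviduct replicate 2 alone, with normalized log2 signals of 5.39 and 5.204 there. Mtcp1, of the same family, lay between 5.199 and 5.77 on all arrays. Of the Akt kinase genes to whose products Tcl1 binds, 2 were on the array and neither was above background.

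Btg4 was close to background throughout. Its signals were 109 ± 4.09 and 119 ± 5.33 (standard error over beads) on oviduct arrays, 112 ± 6.03 and 108 ± 5.01 on the ICI arrays, and 85.6 ± 3.72 and 100.1 ± 3.95 on the uterus arrays. Uterus replicate 1 was lowest and not above background, and the whole range over the 6 arrays was 0.94 log2 units. The log2 means were 5.52 ± 0.28 (oviduct), 5.79 ± 0.03 (ICI) and 5.204 ± 0.46 (uterus; SD, n = 2 each). ICI minus uterus was 0.59 (SE 0.27, 95% confidence interval -0.05 to 1.22, limma adjusted p = 0.557). It was 0.26 without uterus replicate 1, 0.92 without uterus replicate 2, 0.26 with no background correction and 0.21 with the authors' values. Both ICI arrays lay above both uterus arrays, as did 25.3% of all tested probes. Oviduct minus uterus was 0.32 (SE 0.27, limma adjusted p = 0.559) and oviduct minus ICI was -0.27 (SE 0.27, limma adjusted p = 0.586). Both oviduct arrays lay below both ICI arrays, as did 26.1% of all tested probes.

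Genes related to Btg4 showed other orders. Btg1, an antiproliferative gene of the same family, had a log2 difference of -0.28 for oviduct minus uterus and of 0.32 for ICI minus uterus, and Btg3 had 0.07 and 1.08, with limma adjusted p from 0.485 to 0.928. Tob1, with Btg1 among the 2 highest of the family by mean signal, had -0.02 and 0.41. Of the deadenylation genes 11 of 15 on the array were tested, among them the CCR4-NOT subunit genes Cnot2 and Cnot7, and none passed in any comparison. Cnot7, a catalytic subunit, lay between 9.42 and 9.75 (log2) on all arrays. Over the tested deadenylation genes the median log2 difference of oviduct minus uterus was -0.23, against 0 over all tested probes.

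Dppa3 was far above background on every array. Its signals were 13072 ± 318 and 13216 ± 337 (standard error over beads) on oviduct arrays, 9288 ± 306 and 7257 ± 191 on the ICI arrays, and 8837 ± 176 and 7438 ± 219 on the uterus arrays. Both oviduct arrays lay above the other 4, before and after normalization. On the log2 scale the values were 13.29 and 13.68 for oviduct, 13.26 and 13.02 for ICI, and 13.15 and 12.99 for uterus, so the margin of oviduct replicate 1 over ICI replicate 1 was small. The log2 difference of oviduct minus uterus was 0.41 (SE 0.21, 95% confidence interval -0.09 to 0.92, limma adjusted p = 0.349), that of oviduct minus ICI 0.35 (SE 0.21, limma adjusted p = 0.383), and that of ICI minus uterus 0.07 (SE 0.21, limma adjusted p = 0.938). None passed, and 23.5% and 27.3% of all tested probes lay higher in the oviduct group without overlap with the uterus and the ICI group.

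Other Dppa genes were above background on all arrays too. Dppa5a, which encodes an RNA-binding protein of embryonic stem cells, lay between 14.81 and 14.92 (log2) on all arrays. Dppa4 and Dppa2, chromatin proteins that act together, had log2 differences of 0.46 (SE 0.17) and 0.77 (SE 0.25) for oviduct minus uterus, with limma adjusted p of 0.228 and 0.192. Dppa1 had -0.41 (SE 0.24) for oviduct minus uterus and -0.76 for oviduct minus ICI, with limma adjusted p of 0.418 and 0.167. Of the DNA methylation genes that were tested, 5 of 7 on the array, none passed. They include Dnmt3b and Dnmt3l, with log2 differences of -0.18 and -0.76 for oviduct minus uterus.

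**Figure D2:**
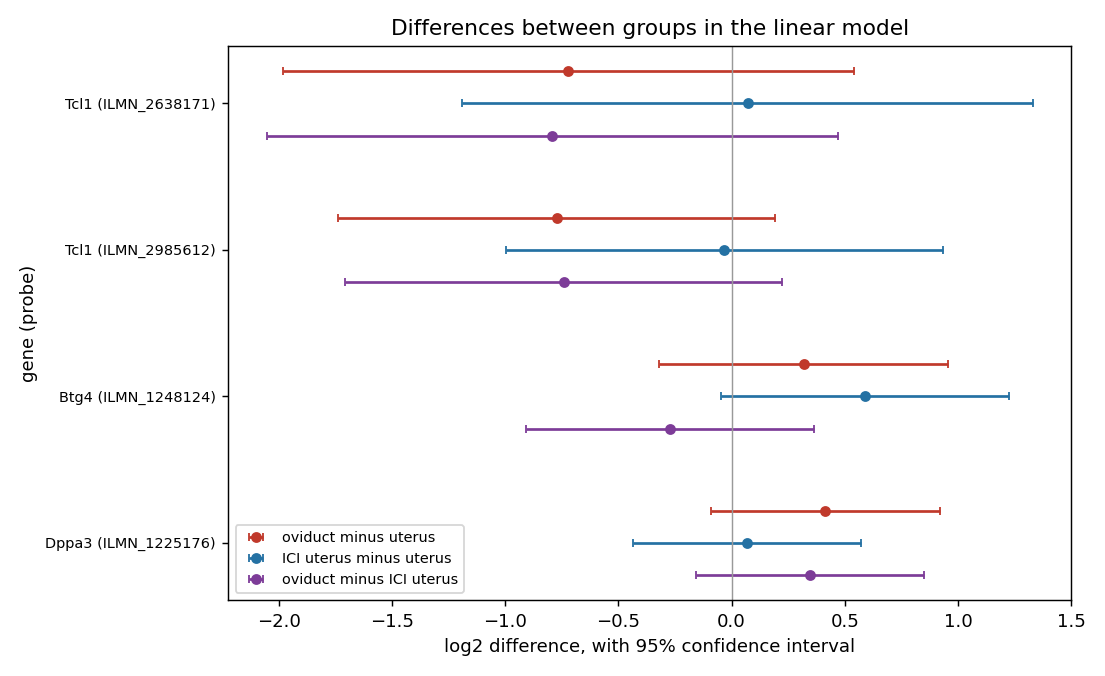
Log2 differences between groups (horizontal axis) from the linear model for each probe (vertical axis), with 95% confidence intervals as bars. Red is oviduct minus uterus, blue ICI minus uterus and purple oviduct minus ICI, with 2 arrays per group, for Tcl1, Btg4 and Dppa3. Every interval crosses 0.

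Over the comparisons that were tested, with 13 results on 5 probes, limma called 0 at an adjusted p of 0.05, and the smallest unadjusted p was 0.0649, for Btg4. Of all 17677 tested probes, 0.0509% passed for oviduct against uterus, 0% for ICI against uterus and 0.339% for oviduct against ICI, so a count of 0 is near the background. By direction, 0.00566% were higher and 0.0453% lower for oviduct against uterus, and 0.119% higher and 0.221% lower for oviduct against ICI. For ICI against uterus 1632 probes had an unadjusted p under 0.05. All 7 probes passed the filter, which asks that both arrays of some group have a detection p under 0.05. Under a limit of 0.01 the probes of Tcl1, Btg4 and Dppa3 remained (4 of 7), and those of Tcstv1 and Omt2a did not.

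The genes of the 2-cell burst were then read array by array, since Tcstv1 belongs to them (the list leaves Tcstv1 itself out). Of 22 genes on the array, all 17 that were above background anywhere were so on oviduct replicate 2, against 9 on oviduct replicate 1, 12 and 9 on the ICI arrays, and 8 and 9 on the uterus arrays. Of these 17, 13 had their highest value on oviduct replicate 2, as did 18.7% of all probes, and 10 had a height of at least 1 there (1.48% of all probes). Their median difference between oviduct replicates 2 and 1 was 1.95 log2 units, against -0.04 over all probes, while that between uterus replicates 2 and 1 was 0.095. The list's summed signal was 2316 and 5149 on oviduct arrays, 2408 and 2068 on the ICI arrays, and 1946 and 2010 on the uterus arrays. Since being above background on 1 array was enough to be counted, 4 genes above background on oviduct replicate 2 alone are included by construction.

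Individual 2-cell genes differed in how far they shared this. Tdpoz2 and Tmem92, named as the list's highest by mean signal, stood at 8.47 and 8.48 (log2) on oviduct replicate 2 but also reached 7.10 and 7.48 on ICI arrays. A second probe of Tmem92 gave another order, with 6.02 and 6.99 on oviduct arrays and 5.80 and 5.30 on the ICI arrays. AF067061 and Tdpoz4, named after their values were seen, had heights of 3.91 and 2.41. Zscan4c, of the Zscan4 family that marks the 2-cell stage and a rare state of embryonic stem cells, behaved otherwise. Its signals were 77.0 and 154 on oviduct arrays, 231 and 66.0 on the ICI arrays, and 72.7 and 66.3 on the uterus arrays. It was highest on ICI replicate 1, next on oviduct replicate 2 and not above background on the other 4. Tdpoz, Zscan4 and Usp17l genes have near-identical copies, so values within these families are uncertain. Of the 10 genes that were tested none passed in any comparison, and their median log2 difference was 0.77 for oviduct minus uterus, 0.11 for ICI minus uterus and 0.44 for oviduct minus ICI.

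The stored transcripts of the oocyte peaked elsewhere. Of 34 oocyte and maternal genes above background on any array, 33 were so on uterus replicate 2, 23 on oviduct replicate 2 and 13 to 17 on the other 4 arrays. By construction the count includes 9 genes that were above background on uterus replicate 2 alone. Their highest value was on uterus replicate 2 for 26 genes (8.6% of all probes) and on oviduct replicate 2 for 7, and 18 had a height of at least 1 on uterus replicate 2 (0.206% of all probes). Gdf9, an oocyte growth factor gene named after its values were seen, had signals of 251 and 276 on oviduct arrays, 154 and 134 on the ICI arrays, and 178 and 2069 on the uterus arrays. The uterus arrays thus differed widely from each other, and oviduct replicate 2 was next after uterus replicate 2. Khdc3 and Ooep, genes of the subcortical maternal complex named as the list's highest by mean signal, had log2 differences of -0.04 and -0.39 for oviduct minus uterus. None of the 16 genes that were tested passed in any comparison, and their median log2 difference was -0.34 for oviduct minus uterus, -1.24 for ICI minus uterus and 0.94 for oviduct minus ICI.

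**Figure D3:**
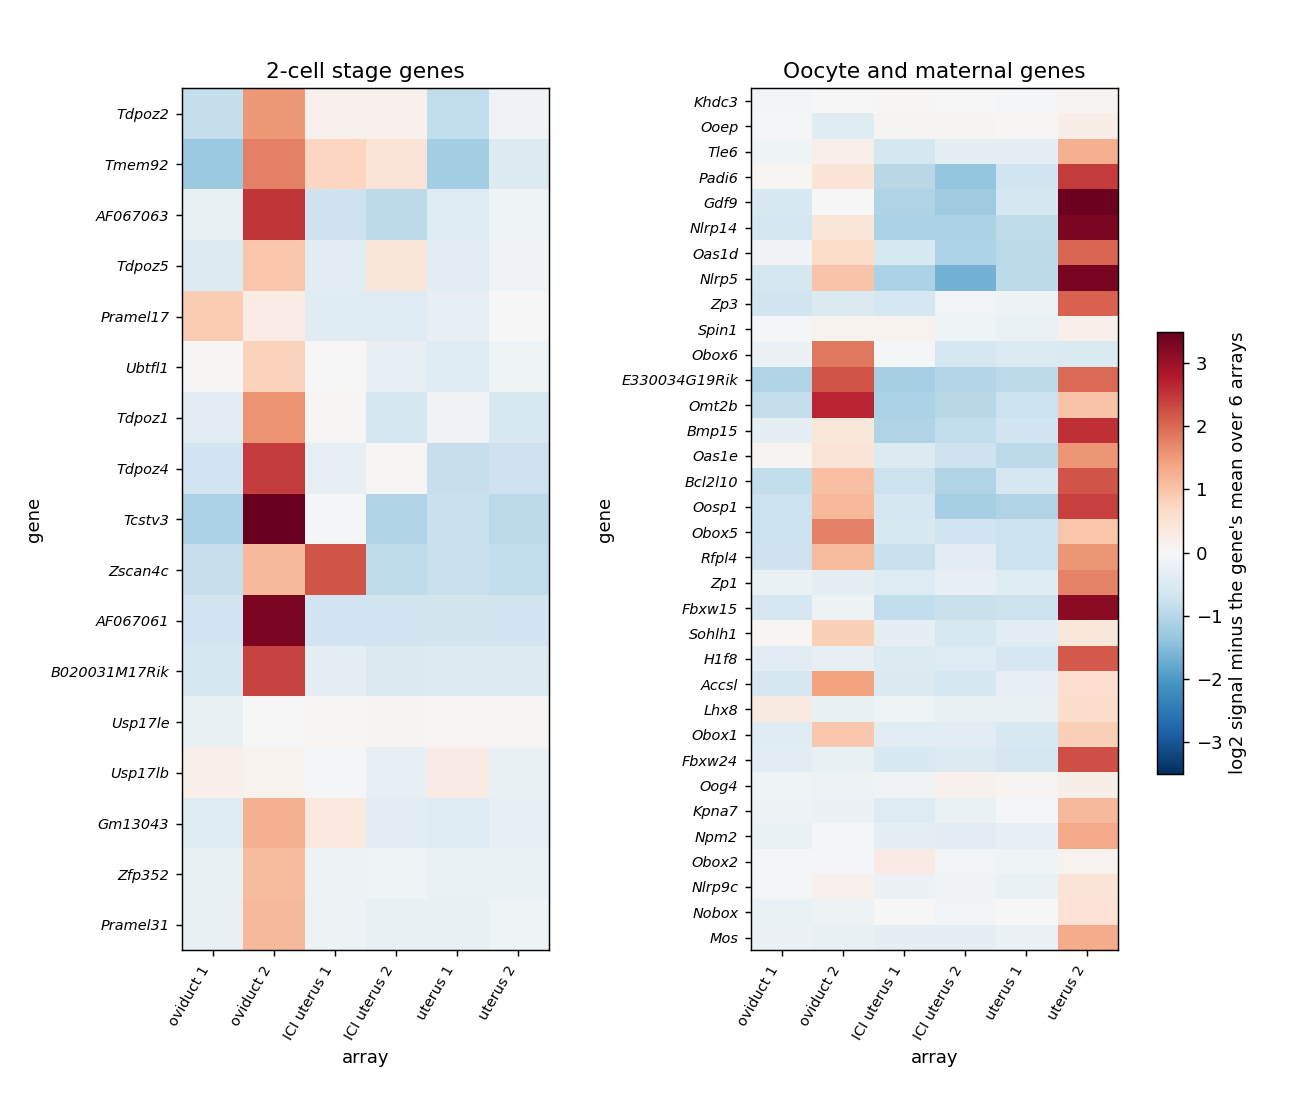
Log2 signal minus the gene's mean over the 6 arrays (colour) for 17 genes of the 2-cell stage (left) and 34 oocyte and maternal genes (right), 1 row per gene and 1 column per array. The 2-cell genes were mostly highest on oviduct replicate 2 (13 of 17), and the oocyte and maternal genes on uterus replicate 2 (26 of 34).

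Set against these lists, the 5 genes fell in different places. Tcstv1 differed by 3.74 log2 units between oviduct replicates 2 and 1 and by 0.32 between uterus replicates 2 and 1, against list medians of 1.95 and 0.095 for the 2-cell genes and of 0.40 and 1.74 for the oocyte and maternal genes. Of the oocyte list, 27 of 34 were higher on oviduct replicate 2 than on replicate 1, and 33 of 34 on uterus replicate 2 than on replicate 1. Omt2a differed in both, by 4.40 and 2.68 (probe ILMN_2517795), as did Omt2b. Tcl1 had differences of 0.84 and 0.52 (ILMN_2985612), Btg4 of 0.40 and 0.66, and Dppa3 of 0.39 and -0.16. Obox6, a homeobox gene of the maternal list named after its values were seen, was raised on oviduct replicate 2 alone, by 1.89.

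**Figure D4:**
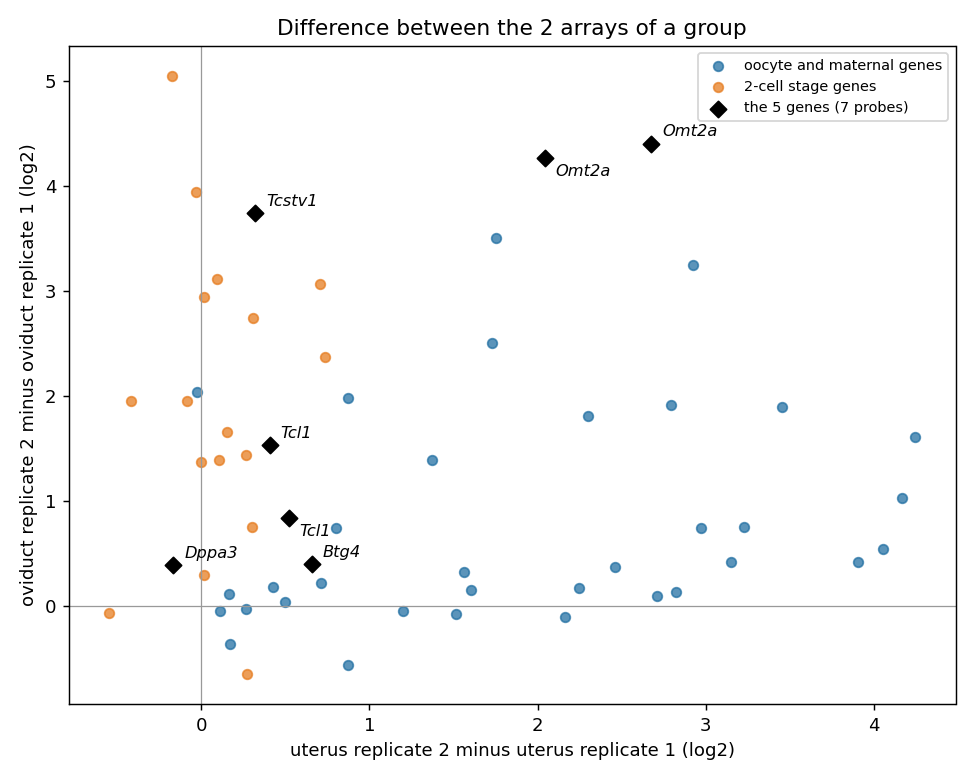
Difference between the 2 arrays of the oviduct group (vertical axis, log2) against that of the uterus group (horizontal axis, log2). Black diamonds are the 7 probes of the 5 genes, orange points the 2-cell genes and blue points the oocyte and maternal genes; Tcstv1 lies among the orange points at 3.74 and 0.32, and the Omt2a probes lie high on both axes.

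Genes most like each member were sought by Pearson correlation over the 6 arrays among 4778 probes that spanned at least 1 log2 unit. For Tcstv1, 47 probes had r above 0.99, since any gene raised on oviduct replicate 2 alone resembles it, and Sobp, Cyp1b1, Emp3, Itga9 and Hspa1a led with r from 0.997 to 0.998. For Omt2a the leading genes were Inha, Akr1cl, Heph, Axl and Defb19 (r from 0.996 to 0.998). Inha, which encodes the inhibin alpha subunit made by granulosa cells of the ovary, had signals of 87.3 and 1402 on oviduct arrays, 86.9 and 71.1 on the ICI arrays, and 79.3 and 317 on the uterus arrays. Like Omt2a, it was highest on oviduct replicate 2 and next on uterus replicate 2. Tcl1 was most like Fhl1 (0.980), H2bc12, Mrgpra2b, H2bc7 and Cited2, and Btg4 most like Tpm3 (0.984), Mex3c, Rabl3, Rps3 and Ptpn12. Dppa3 was most like Kif3c (0.995), Slc19a2, Tmem92 by its second probe, Padi1 and Spic. With 6 arrays and so many probes, such values describe these arrays only.

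By summed signal, markers of cumulus and granulosa, stroma and blood, and oviduct epithelium were highest on oviduct replicate 2. The sums use uncorrected signals and include markers not above background on any array. Of those above background somewhere, 4 of 6, 5 of 6 and 2 of 3 in these lists were highest there after normalization. That held for 18.7% of all probes. Foxl2, Has2 and Foxj1, named after their values were seen, were highest on ICI replicate 2. The summed signal of the uterine epithelium markers was lowest on oviduct replicate 2, at 3570, against 4608 to 6093 on the other arrays. Most of it came from Wfdc2, with signals of 3965 and 2824 on oviduct arrays. After normalization Wfdc2 stood at 11.46 and 11.49 there, and at 12.09 or more on the ICI and uterus arrays. Of the 5 above background on any array, Ltf alone was highest on oviduct replicate 2, with a signal of 416, against at most 200 elsewhere. On uterus replicate 2, where Omt2a was high too, the sums of stroma and blood and of uterine epithelium markers were below those of uterus replicate 1. Hba-a1 of the stroma and blood list had signals of 1179 and 426 on uterus replicates 1 and 2. The sum of cumulus and granulosa markers on uterus replicate 2 was above that of uterus replicate 1. That of 6 oviduct epithelium markers was nearly equal, at 524 against 521, with 1 of them above background on each uterus array. Of 7 cumulus and granulosa markers on the array, 5 were above background on oviduct replicate 2, against 1 on oviduct replicate 1, 2 and 3 on the ICI arrays, and 1 and 3 on the uterus arrays. Their summed signal was 1196 and 1873 on oviduct arrays, 774 and 719 on the ICI arrays, and 794 and 860 on the uterus arrays, led by Amhr2, the receptor of anti-Müllerian hormone. Inhba was above background on oviduct replicate 2 alone (signal 234). The summed signal of 7 stroma and blood markers was 751 and 2724 (oviduct), 561 and 612 (ICI) and 1673 and 873 (uterus). Hba-a1 and Dcn are named as highest by mean signal, and Hba-a1 alone had a signal of 1697 on oviduct replicate 2. Pdgfrb, named after its values were seen, went the other way. It was lowest on oviduct replicate 2, at 4.40 (log2) and not above background, and highest on uterus replicate 1, at 5.31. The summed signal of 6 oviduct epithelium markers was 675 and 909 (oviduct), 533 and 557 (ICI), and 521 and 524 (uterus). The ciliary gene Rsph1 and the oviduct glycoprotein gene Ovgp1 are named as highest of these by mean signal. Of the uterine epithelium markers, Prap1 was lower in the oviduct than in the uterus group by at least 23.1-fold (limma adjusted p = 0.0376), with neither oviduct array above background. Prap1 passed the detection filter only through the uterus group, where it was high, so this p-value is not independent of the filter. With no detection filter the limma adjusted p was 0.115. It stayed past the threshold in 6 of 15 alternatives chosen after seeing the data, with adjusted p from 0.0131 to 0.390. The highest was without uterus replicate 1. No other member of any list passed in any comparison. Wfdc2 and Ltf, the 2 highest of that list by mean signal, had log2 differences of -0.67 and 0.69 for oviduct minus uterus. The part of other cells, or of embryos at other stages, in the signals of Tcstv1 and Omt2a was not tested, and in pooled RNA fewer cells of a type and less RNA per cell cannot be told apart.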

How the data were processed

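Per the file headers, the authors deposited the mean bead signal intensity of each of 45281 probes on 6 arrays, together with the spread over beads as a standard error, bead numbers, and a p-value for detection above background. The authors also deposited log2 values, which equal the log2 signal minus a constant per array and per probe, so their zero carries no level. The scanner software and the authors' normalization are not stated by any label or header.

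Signals were background-corrected and quantile normalized with neqc of limma 3.58.1 (R 4.3.3, offset 16). Probes were kept where some group had a detection p under 0.05 on each of its arrays, and these 17677 were fitted with limma's linear model of 3 group means (3 residual and 3.77 prior degrees of freedom), and p-values were adjusted over all of them by Benjamini-Hochberg at a threshold of 0.05. The planned test of ICI against uterus was not used for the 2 probes of Tcstv1 and Omt2a that passed the filter through the oviduct group only. The code was tested on simulated data. Probes were named from the platform annotation (34885 with 1 gene symbol, 18 with several, 10378 with none; 34807 matched to RefSeq, GRCm38.p6). Precision is limited by how few arrays there are.

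The members, gene lists and tests were chosen with earlier results of these data known. Named were all member probes, the 5 genes most correlated with each member (clone names left out), and, of each list, the 2 genes with the highest mean, those past the threshold and relatives of the members. Any other gene is said to have been named after its values were seen. Alternatives covered background correction, normalization, the authors' values, the detection filter, the groups in the fit, a replicate block, array weights and leaving out each array. Leaving out either array of the group not compared gave the same result as fitting only the 2 groups compared. Counts of alternatives therefore include repeats of the same fit.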

Additional observations from a re-analysis of the deposited data

How the results depend on the processing

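The number of probes past the threshold moved with most settings, while no member passed in any of 194 alternatives of 13 tested results. For oviduct minus uterus 9 probes passed (1 higher, 8 lower), against 33 with median scaling (14 higher, 19 lower), 34 with no background correction (10 higher, 24 lower), 1 with no detection filter, and 0 with the authors' values, with only the 2 groups compared and with array weights. For oviduct minus ICI 60 passed (21 higher, 39 lower), against 47 with median scaling (28 higher, 19 lower), 123 with no background correction (62 higher, 61 lower), 20 with the authors' values (10 higher, 10 lower), 4 with no filter, 0 with only the 2 groups and 11 with array weights. For ICI minus uterus 0 passed under every setting run. Leaving out 1 array gave 0 to 1516 for oviduct minus uterus (1516 without oviduct replicate 1, 436 without oviduct replicate 2) and 0 to 2800 for oviduct minus ICI (1023 and 2800 without the same arrays), where the lone array was assumed to vary like the other groups. The causes were not tested. With the replicate number as a block, 0 and 5 probes passed for the 2 oviduct comparisons. Deviations of same-numbered arrays from their group means correlated with r = 0.0657, 0.230 and 0.125. Whether same-numbered arrays shared a batch is not stated in the labels and was not tested.

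Of these, 184 kept their direction and 10 turned, none of them called. Tcl1 (ILMN_2638171) turned to 0.045 for oviduct minus uterus without oviduct replicate 1, and to -0.41 without ICI replicate 2 and -0.13 without uterus replicate 1 for ICI minus uterus. Tcl1 (ILMN_2985612) turned to 0.44 without ICI replicate 1 and 0.23 without uterus replicate 2 for ICI minus uterus. Btg4 turned to -0.010 for oviduct minus uterus without uterus replicate 1. Dppa3 turned for ICI minus uterus to -0.027 with median scaling, -0.017 with the authors' values, -0.052 without ICI replicate 1 and -0.015 without uterus replicate 2, and its height on oviduct replicate 2 was -0.026 with median scaling, against 0.39. Over all single arrays left out, these differences ran from -1.49 to 0.045 and -0.41 to 0.55 (Tcl1, ILMN_2638171, oviduct and ICI minus uterus), -0.50 to 0.44 (Tcl1, ILMN_2985612, ICI minus uterus), -0.010 to 0.65 (Btg4, oviduct minus uterus) and -0.052 to 0.19 (Dppa3, ICI minus uterus). The height of Tcstv1 was 3.53 with median scaling, 2.35 with no background correction and 2.22 with the authors' values, against 3.63. Tcstv1 and Omt2a had no value under a detection limit of 0.01.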
